A study of Mus musculus with 2 samples.

Results

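The motile cilia and axonemal dynein genes examined here are the 63 genes of the 32285 listed whose symbol matches a fixed pattern: the axonemal dynein heavy chains (Dnah), the axonemal dynein intermediate and light chains (Dnai, Dnaic, Dnali1, Dnal1), the cilia and flagella associated proteins (Cfap), the central apparatus genes Spag6l, Spag16 and Spag17, and the radial spoke genes (Rsph). Membership rests on the symbol alone. They were followed through single-nucleus RNA sequencing of the hippocampus of 3-month-old mice of the genotype Stra8L/-; Nestin-Cre, in 1 male library and 1 female library. Both libraries carry the conditional deletion of Stra8, a factor known for the entry of germ cells into meiosis, and no library of another genotype was analysed here, so no value below speaks to the deletion. Nestin-Cre acts in neural progenitors, from which neurons, astrocytes, oligodendrocytes and ependymal cells descend, and not in the lineage of microglia. The number of animals behind each library is not given in the sources used here. Stra8 itself had 3 UMIs in the 16174 barcodes of the male library and 6 UMIs in the 20150 barcodes of the female library. These UMIs do not check the deletion, since the deleted part of the gene is not given in the sources used here.

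A motile cilium beats because dynein motors on its outer microtubule doublets walk along the neighbouring doublet. Outer dynein arms set the force and frequency of the beat, inner arms its shape, and the radial spokes and central apparatus pass on the signals that time the motors. In the brain, ependymal cells line the ventricles with tufts of motile cilia that move cerebrospinal fluid, the epithelium of the choroid plexus makes that fluid and bears cilia of limited motility, and neurons and astrocytes carry a single primary cilium that lacks dynein arms and the central apparatus. Sperm flagella use the same plan with several parts of their own.

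The male library held 103262825 UMIs and the female library 108286856 UMIs (a UMI is a tag that marks 1 captured molecule). After filters, 13794 male and 16987 female nuclei were kept, of which 11.1% and 30.3% lay in clusters that took no name, and 101 barcodes occurred in both libraries. The members were left out of the genes that drove the clustering. So were the listed genes of the central apparatus, dynein assembly, outer arm docking, the nexin-dynein regulatory complex and basal body amplification. The listed ciliogenesis transcription factors and intraflagellar transport genes, and the ependymal markers, could take part. A cluster named ependymal-like from its markers, called ependymal here, formed without the genes left out. It had 5 male and 79 female nuclei, which held 28984 and 479053 UMIs. Choroid plexus nuclei came from the male library alone, with 25 nuclei and 130447 UMIs. The neurons, pooled from 7 named classes, numbered 7642 male and 5244 female nuclei, and the astrocytes 1003 and 1478. The make-up of the neuron pool differed between the libraries. It held 4032 male and 1740 female granule nuclei, and its 149 thalamic or habenular nuclei came from the female library alone. With 1 library in each group there was no test and no p-value. Levels are CPM, the UMIs of a gene scaled to the total UMIs of its class in 1 library, with exact 95% Poisson intervals in brackets, and log2 ratios of CPM carry exact 95% intervals. All of them cover counting error and say nothing about the spread between animals.

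The ependymal name was given from 8 markers, so their levels describe the cluster and do not test the name. Tmem212 stood at 656 CPM in male and 720 CPM in female ependymal nuclei, against 0.406 and 0.724 CPM in neurons. Foxj1, the master factor of motile ciliogenesis, stood at 104 and 83.5 CPM in ependymal nuclei, against 0.711 and 0.841 CPM in neurons. The male ependymal level of Foxj1 rests on 3 UMIs, and Rarres2, Mia and Fam216b had 1 UMI each there. Of the 8 ependymal markers, 6 were at 0 UMIs in the choroid plexus nuclei (Foxj1, Tmem212, Rarres2, Mia, Ccdc153 and Fam216b). The other markers were present there, Vwa3a with 15 UMIs and 115 CPM in 11 of 25 nuclei, against 26.3 CPM in male neurons, and Pltp with 4 UMIs and 30.7 CPM, against 3.01 CPM. In the same nuclei Ttr, the thyroxine carrier of the choroid plexus, stood at 9015 CPM. Ttr also reached 572 CPM in male neurons, against 37.1 CPM in female neurons. The part of free RNA in low levels outside the ciliated classes was not tested.

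The members were concentrated in ependymal nuclei. Summed over all 63 genes, they took 15526 CPM (14124 to 17029) in male and 18374 CPM (17992 to 18762) in female ependymal nuclei, which is 1.55% and 1.84% of all UMIs counted there. Choroid plexus nuclei had 4124 CPM (3783 to 4488), male and female neurons 723 and 671 CPM, and male and female astrocytes 562 and 550 CPM. The female ependymal sum was thus 27.4 times that of neurons (log2 4.77, 4.74 to 4.81) and 33.4 times that of astrocytes (log2 5.06, 5.00 to 5.12). In the male library, with 5 ependymal nuclei, the log2 ratio over neurons was 4.42 (4.29 to 4.56). Oligodendrocytes were lowest, at 373 and 368 CPM.

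**Figure D1:**
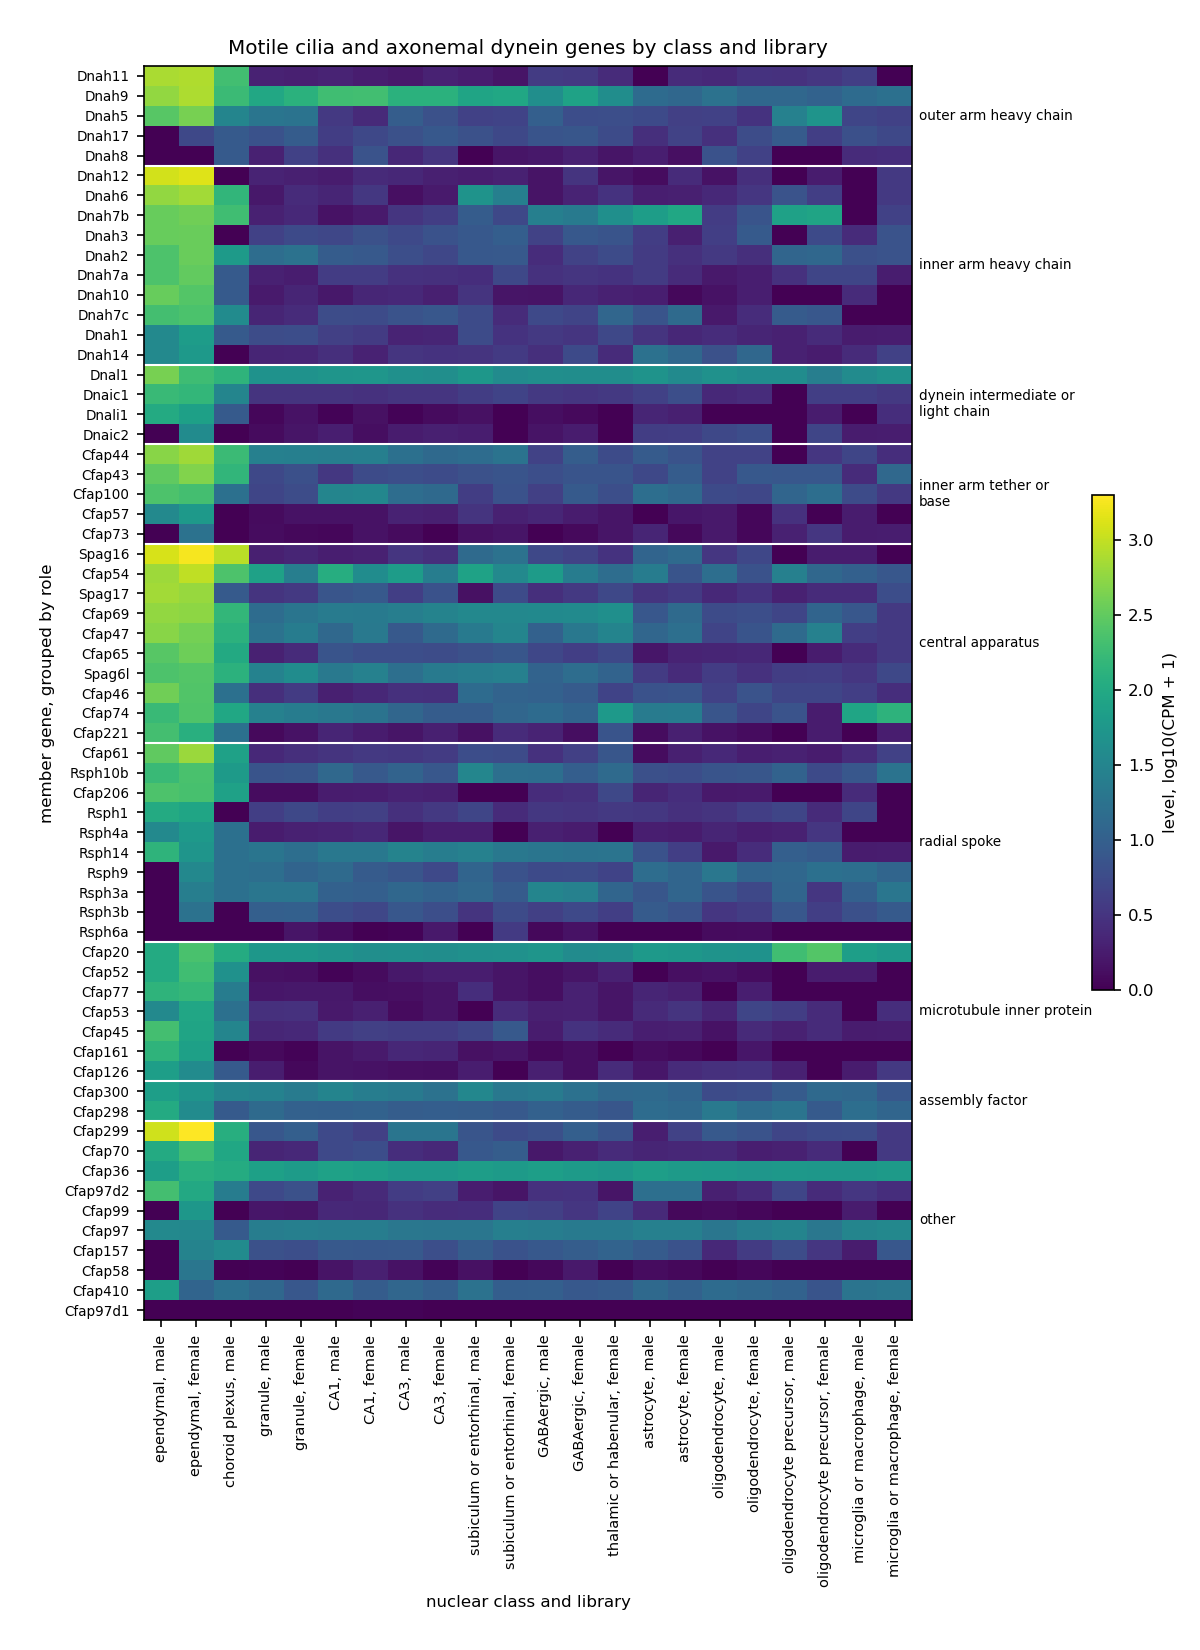
Level of each of the 63 members (rows, grouped by role) in each nuclear class and library (columns), as log10 of CPM plus 1. The 2 ependymal columns at the left are bright through most rows, the choroid plexus column is bright in part of them, and in the other columns single genes stand out, such as Dnah9 in CA1 neurons and Cfap20 in oligodendrocyte precursors.

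Most members shared in this rather than a few. A member was counted as higher where its CPM plus 5 was at least 4 times that of the other class, among genes with at least 10 UMIs in both classes together. Against female neurons 62 members could be compared and 48 were higher in female ependymal nuclei, none lower. Over all genes, 5.36% were higher and 0.763% lower by this measure. The median log2 ratio was 3.77 over the 62 members and 0.09 over all genes compared. Against female astrocytes, 47 of 59 members were higher, with 5.25% over all genes, and none lower, with 0.873%. In the male library 47 of 61 members were higher in ependymal nuclei than in neurons, with 8.62% over all genes, and 1 member, Rsph3a, was lower, with 12.2% lower over all genes. Rsph3a had 0 UMIs in the male ependymal nuclei, where 3 UMIs equal 104 CPM, above its neuron level. Against male astrocytes 35 of 44 members were higher, with 6.07% over all genes, and none lower, with 19.1%. Some of the 44 reached the minimum of 10 UMIs through the ependymal nuclei alone. Among them were Dnah11 (22 and 0 UMIs in ependymal nuclei and astrocytes), Dnah12 (34 and 1) and Cfap299 (33 and 3). Members low in both classes were not compared, which raises the share of members called. Of the members higher over neurons, 43 were called in both libraries, which is 43 of the 48 female and 43 of the 47 male calls. In the male ependymal nuclei 1 UMI equals 34.5 CPM, so 1 UMI can pass 4-fold for a member low in neurons. Dnah1 and Dnah14 were called there on 1 UMI each. A shared call therefore says little for a member with few male UMIs.

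The same could be seen nucleus by nucleus. With every nucleus thinned to 1000 UMIs, ependymal nuclei held a UMI of a median of 11 members in the male library (range 5 to 18) and of 12 members in the female library (range 3 to 23). Choroid plexus nuclei held a median of 4 members (0 to 10), male and female neurons 1 and 0, and astrocytes 0 in both libraries. At least 9 members, the lower quartile of the female ependymal nuclei, were seen in 3 of 5 male and 62 of 79 female ependymal nuclei. The female ependymal share was set in advance by this cutoff. In the other classes 1 choroid plexus nucleus reached that number, and so did 1 nucleus of the female library that had been removed with the doublets. No neuron or astrocyte did.

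**Figure D2:**
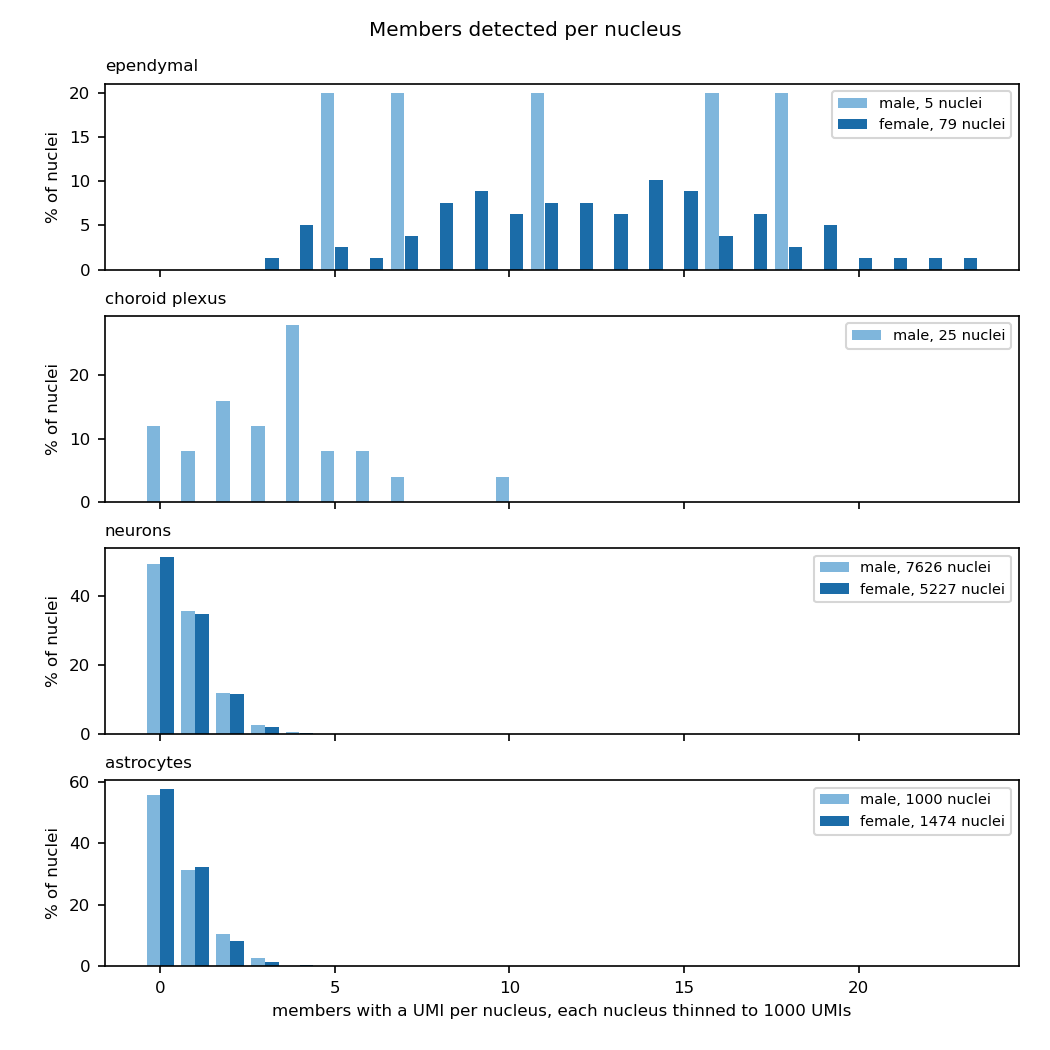
Percentage of nuclei (vertical axis) by number of members with a UMI (horizontal axis), each nucleus thinned to 1000 UMIs, in ependymal, choroid plexus, neuron and astrocyte nuclei, with the male library in light and the female in dark bars. Ependymal nuclei spread around medians of 11 and 12 members, choroid plexus nuclei around 4, and neurons and astrocytes lie mostly at 0 and 1.

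Motile cilia genes are known targets of RFX factors, which bind an inverted repeat called the X-box, and the promoters of the members were read for it. RefSeq (GRCm38.p6) gave a window of 300 bases, 250 before and 50 after the start of the gene, for 52 of the 63 members. An inverted repeat, GTTNCNNNNGNAAC or GTTNCNNNGNAAC, occurred on either strand in 14 of these 52 windows (26.9%), against 2.29% of the windows of all 27025 genes. Each form is its own reverse complement. The letters were chosen after some of the sequences had been seen, which may raise the share among members. The 14 count the paralogs Dnah7a, Dnah7b and Dnah7c separately, although they share the same repeat. A single arm, GTTGCC, which can overlap the repeat, occurred in 18 members (34.6%), against 14.1% of all genes. The repeat was found in 12 of the 39 windowed members that were higher in female ependymal nuclei than in neurons and in 2 of the 13 others. A match is a description of the sequence and shows no binding. The windows of Spag16 (chr1:69826720-69827019, plus strand) and Cfap44 (chr16:44394549-44394848, plus strand) are shown because both genes are among the highest in ependymal nuclei and were also present in the choroid plexus, with the repeat in capitals, starting 103 and 27 bases before the start of the gene:
Spag16: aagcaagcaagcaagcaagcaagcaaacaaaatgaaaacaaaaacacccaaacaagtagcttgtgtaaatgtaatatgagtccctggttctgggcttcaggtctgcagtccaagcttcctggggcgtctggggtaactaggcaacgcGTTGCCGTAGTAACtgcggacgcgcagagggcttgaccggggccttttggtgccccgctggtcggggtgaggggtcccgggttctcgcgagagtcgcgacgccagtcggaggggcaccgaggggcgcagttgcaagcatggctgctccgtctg
Cfap44: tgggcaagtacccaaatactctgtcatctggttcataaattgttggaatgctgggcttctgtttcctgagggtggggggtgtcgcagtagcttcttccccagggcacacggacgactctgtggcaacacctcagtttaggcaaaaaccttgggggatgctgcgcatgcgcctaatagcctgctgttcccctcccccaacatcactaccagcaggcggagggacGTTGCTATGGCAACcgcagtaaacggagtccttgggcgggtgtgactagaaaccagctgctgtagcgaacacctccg

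The 3 paralogs Dnah7a, Dnah7b and Dnah7c, inner arm heavy chains on chromosome 1, hold the same 13 letters, GTTGCTTAGCAAC. The whole window is shown for Dnah7b (chr1:46066603-46066902, plus strand, repeat 24 bases before the start) and the repeat with 20 bases to each side for Dnah7a (chr1:53706809-53706861, minus strand, 57 bases before the start) and Dnah7c (chr1:46425429-46425481, plus strand, 69 bases before the start), since these 3 genes differ in where they are expressed, as described further on:
Dnah7b: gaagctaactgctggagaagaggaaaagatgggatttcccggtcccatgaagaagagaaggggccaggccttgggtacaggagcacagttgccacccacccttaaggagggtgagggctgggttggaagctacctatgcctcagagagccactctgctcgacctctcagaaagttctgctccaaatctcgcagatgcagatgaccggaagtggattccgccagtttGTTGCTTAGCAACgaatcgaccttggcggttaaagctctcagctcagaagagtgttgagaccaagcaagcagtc
Dnah7a: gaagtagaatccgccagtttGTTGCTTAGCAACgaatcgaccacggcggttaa
Dnah7c: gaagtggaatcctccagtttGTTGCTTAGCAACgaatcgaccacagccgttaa
Over the aligned windows Dnah7a and Dnah7c were 79.6% identical, Dnah7a and Dnah7b 67.7%, and Dnah7b and Dnah7c 59.8%. The repeats of 4 further members of different roles, a heavy chain of the outer arm (Dnah9, chr11:66168601-66168653, minus strand), a heavy chain of the inner arm (Dnah6, chr6:73221635-73221687, minus strand), a radial spoke protein (Cfap61, chr2:145934756-145934809, plus strand) and an intermediate chain (Dnaic1, chr4:41569755-41569807, plus strand), show how far the letters between and within the arms vary:
Dnah9: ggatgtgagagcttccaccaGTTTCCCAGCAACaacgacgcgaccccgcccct
Dnah6: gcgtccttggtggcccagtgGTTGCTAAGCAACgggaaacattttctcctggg
Cfap61: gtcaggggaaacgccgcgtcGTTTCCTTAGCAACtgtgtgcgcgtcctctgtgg
Dnaic1: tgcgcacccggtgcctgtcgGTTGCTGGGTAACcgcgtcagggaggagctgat

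The outer arm heavy chains split into a set of cilia and a set of sperm flagella. Dnah11 and Dnah9, which form the outer arms of motile cilia with Dnah5, had 22 and 17 UMIs in the male and 388 and 377 UMIs in the female ependymal nuclei. Dnah11 stood at 759 CPM (476 to 1146) in male and 810 CPM (731 to 895) in female ependymal nuclei, against 1.22 and 1.31 CPM in neurons, a log2 ratio of 9.27 (8.89 to 9.67) in the female library. Dnah5 stood at 276 CPM (119 to 544) in male and 417 CPM (362 to 480) in female ependymal nuclei, against 10.5 and 6.57 CPM in neurons. Dnah8 and Dnah17, known as outer arm heavy chains of the sperm tail, were nearly absent. Dnah8 had 0 UMIs in both sets of ependymal nuclei, where 3 UMIs would equal 6.26 CPM in the female library, and Dnah17 had 0 male and 2 female UMIs. Counted as higher in female ependymal nuclei were 3 of 5 outer arm heavy chains.

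All 10 inner arm heavy chains were higher in female ependymal nuclei than in female neurons, with a median log2 ratio of 5.06. Dnah12 had the most UMIs of them, with 34 UMIs and 1173 CPM (812 to 1639) in male and 660 UMIs and 1378 CPM (1275 to 1487) in female ependymal nuclei. In neurons Dnah12 stood at 0.999 and 1.29 CPM, so that the female log2 ratio was 10.06 (9.69 to 10.45). The female ependymal nuclei held 660 UMIs of Dnah12 and 345 of the ependymal marker Tmem212, against 66 and 37 in female neurons, so Dnah12 had 1.91 times the UMIs of Tmem212 in ependymal nuclei and 1.78 times in neurons. Dnah6 followed with 587 and 691 CPM in male and female ependymal nuclei, against 2.63 and 2.49 CPM in neurons. Dnah3 (345 and 355 CPM), Dnah2 (242 and 353 CPM), Dnah7b (345 and 386 CPM) and Dnah7a (242 and 324 CPM) followed in male and female ependymal nuclei. The fewest UMIs were of Dnah1 and Dnah14, with 31 and 29 UMIs in female and 1 UMI each in male ependymal nuclei.

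Among the 4 smaller dynein subunits 3 were higher in female ependymal nuclei than in neurons. Dnaic1 had 173 and 150 CPM in male and female ependymal nuclei, against 2.25 and 2.21 CPM in neurons, and Dnali1, a light chain of inner arms, 104 and 75.1 CPM, against 0.135 and 0.313 CPM. Dnal1, a light chain of the outer arm, differed less. It had 414 CPM (214 to 723) in male and 190 CPM (153 to 233) in female ependymal nuclei, but also 47.6 and 46.0 CPM in neurons.

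The central apparatus, the pair of microtubules in the core of the cilium with its projections, was higher in ependymal nuclei for all 10 of its members, with a median log2 ratio of 4.62 in the female library. Spag16 had 36 UMIs and 1242 CPM (870 to 1720) in male and 854 UMIs and 1783 CPM (1665 to 1906) in female ependymal nuclei, against 1.98 and 2.29 CPM in neurons. In the female library 93.7% of ependymal nuclei had a Spag16 UMI and 1.62% of neurons, at median depths of 3576 and 7810.5 UMIs, and after thinning to 1000 UMIs the shares were 74.7% and 0.249%. Spag17 (690 and 618 CPM), Cfap69 (587 and 551 CPM), Cfap47 (518 and 409 CPM) and Cfap65 (276 and 374 CPM) followed in male and female ependymal nuclei. Cfap54, of a projection of the central pair, was high in ependymal nuclei at 656 and 952 CPM but had a level in neurons too, described further on.

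**Figure D3:**
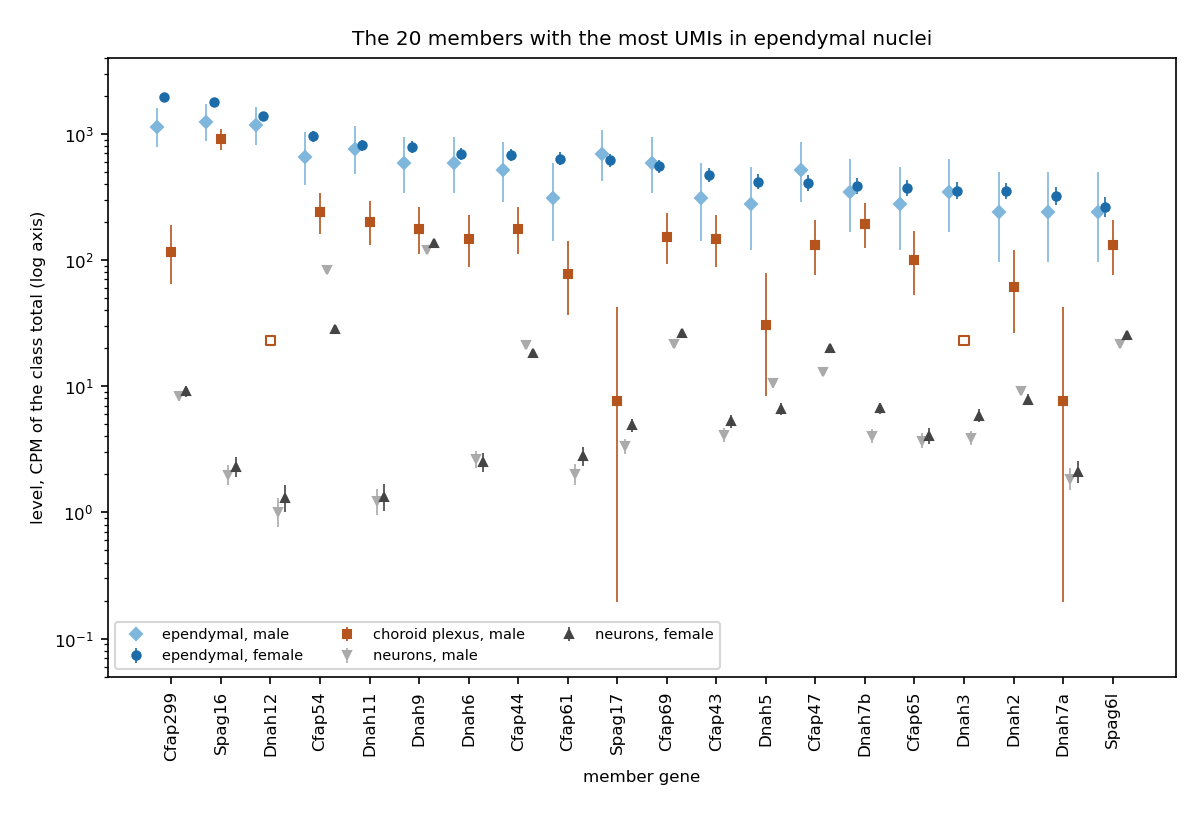
Levels in CPM on a log axis of the 20 members with the most UMIs in female ependymal nuclei, in male and female ependymal nuclei, male choroid plexus nuclei and male and female neurons. Bars are exact 95% Poisson intervals and open squares mark 3 UMIs where the choroid plexus class had none (Dnah12 and Dnah3). Both ependymal series lie above neurons for every gene shown, while the choroid plexus ranges from close to the ependymal level (Spag16) to below its limit.

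Cfap43 and Cfap44, which tether the inner arm motors to the doublet, had 311 and 518 CPM in male and 472 and 681 CPM in female ependymal nuclei. Cfap43 overlaps Itprip on the same strand, so its counts are uncertain. In neurons Cfap43 had 4.08 and 5.26 CPM and Cfap44 21.1 and 18.4 CPM. All 5 members of this group, with Cfap57, Cfap73 and Cfap100, were higher in female ependymal nuclei than in neurons. The 7 microtubule inner proteins, which brace the doublets from within, were all higher too, with a median log2 ratio of 3.84. Cfap52 stood at 104 and 192 CPM in male and female ependymal nuclei, against 0.356 and 0.509 CPM in neurons.

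The radial spokes were divided. Cfap61 (311 and 635 CPM in male and female ependymal nuclei), Rsph10b (173 and 223 CPM), Cfap206 (242 and 215 CPM), Rsph1 (104 and 85.6 CPM) and Rsph4a (34.5 and 58.4 CPM) were higher in female ependymal nuclei than in neurons. Rsph3a, Rsph3b, Rsph9 and Rsph14 did not pass the 4-fold measure in the female library, while Rsph14 passed it in the male library with 4 ependymal UMIs. Rsph3a and Rsph3b are near copies, and Rsph10b overlaps Pms2 on the same strand, so their counts are uncertain. Rsph14 had 138 and 52.2 CPM in male and female ependymal nuclei, against 21.1 and 19.3 CPM in neurons. Rsph6a, known as the sperm counterpart of Rsph4a, had 0 UMIs in ependymal nuclei of both libraries. The 2 assembly factors, Cfap298 and Cfap300, also stayed under 4-fold in the female library, with 37.6 and 50.1 CPM in female ependymal nuclei.

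The member with the most UMIs in female ependymal nuclei was Cfap299, for which no axonemal position is given here. It had 33 UMIs and 1139 CPM (784 to 1599) in male and 938 UMIs and 1958 CPM (1835 to 2087) in female ependymal nuclei, against 8.28 and 9.08 CPM in neurons. Cfap299 overlaps the gene model Gm11111 on the same strand, so how reads were shared between them is uncertain. In this last group 5 of 9 members that could be compared were higher in female ependymal nuclei. Cfap36 had 69.0 and 119 CPM in male and female ependymal nuclei, against 71.2 and 63.8 CPM in neurons, and Cfap97 34.5 and 33.4 CPM, against 23.0 and 22.6 CPM, and Cfap97d1 was not seen in ependymal nuclei at all.

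**Figure D4:**
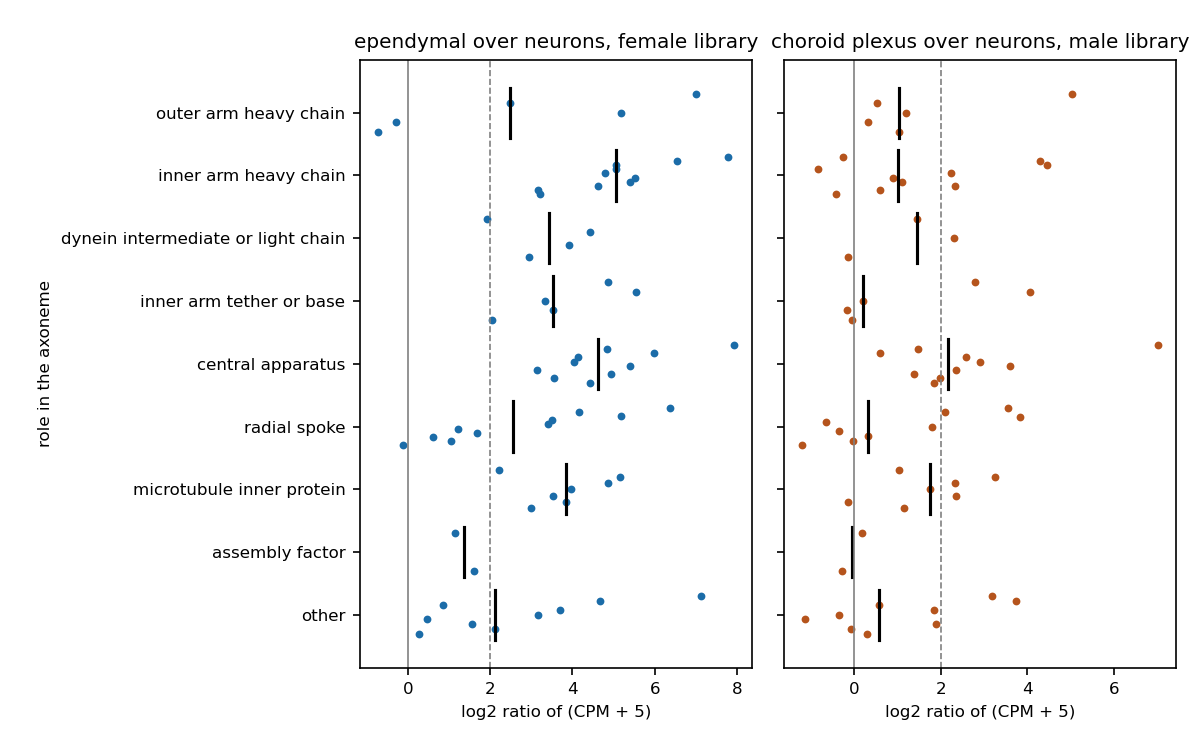
Log2 ratio of CPM plus 5 for each member that could be compared, by role in the axoneme, for ependymal nuclei over neurons in the female library (left) and choroid plexus nuclei over neurons in the male library (right). Each point is 1 gene, short black lines are medians of a role, the solid line marks no difference and the dashed line 4-fold. On the left the inner arm, central apparatus, tether and microtubule inner groups lie wholly right of the dashed line, and on the right most groups straddle it.

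Level and gene length went together. Across the 63 members, the female ependymal level and the span of the gene had a Spearman correlation of 0.69, and the female neuron level and the span one of 0.15. These are descriptions over genes of 1 library, and a long gene offers more nuclear RNA to count where intronic reads are used. Whether they were is not given in the sources used here. Per kilobase of gene span the order changed. Cfap20 led at 15.1 CPM per kb in female ependymal nuclei, then Cfap65 at 11.1, Cfap100 at 8, Cfap44 at 7.77, Dnali1 at 7.25 and Dnah12 at 6.94 CPM per kb. Spag16, with a span of 898 kb, had 1.98 CPM per kb and Cfap299 4.14 CPM per kb. The order of members was alike in both libraries, with a Spearman correlation of 0.93 between male and female ependymal levels.

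Choroid plexus nuclei held part of the set. Their summed level was 5.70 times that of male neurons (log2 2.51, 2.39 to 2.63), and 21 of 60 members were higher, with 3.38% over all genes, and none lower, with 1.94%. Spag16 had the most UMIs, with 118 UMIs and 905 CPM (749 to 1083) in choroid plexus nuclei, where 92% of the nuclei had a UMI, against 1.98 CPM in male neurons. Dnah11 had 199 CPM (130 to 292), against 1.22 CPM in male neurons, and Dnah6 had 146 CPM (87.7 to 227), against 2.63 CPM. Dnah7b (192 CPM), Cfap44 (176 CPM), Cfap69 (153 CPM) and Cfap43 (146 CPM) were also among the 21. Cfap54 at 238 CPM and Dnah9 at 176 CPM were not, since male neurons had 82.5 and 121 CPM of them.

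Set against the 5 male ependymal nuclei, the choroid plexus nuclei had few or no UMIs of several members. The summed male ependymal level was 3.76 times that of the choroid plexus (log2 1.91, 1.73 to 2.10). Of 30 members that could be compared, 9 were higher in ependymal nuclei, with 3.57% over all genes, and none lower, with 11.7% lower over all genes. The 9 were Dnah12, Dnah3, Dnah5, Dnah7c, Dnah10, Spag17, Cfap46, Cfap45 and Cfap299. Some rest on few UMIs in ependymal and choroid plexus nuclei. Dnah7c had 6 and 5 (log2 ratio 2.43, 0.46 to 4.48), Cfap45 6 and 4 (2.76, 0.68 to 5.02) and Dnah5 8 and 4 (3.17, 1.27 to 5.35). Dnah12, Dnah3, Spag17, Dnah10 and Cfap46 reached the minimum of 10 UMIs through the ependymal nuclei alone. Dnah12 had 34 UMIs in the ependymal nuclei and 0 in the choroid plexus nuclei, where 3 UMIs equal 23.0 CPM, and the lower end of the exact interval of its log2 ratio was 5.30. Dnah3 had 10 and 0 UMIs, with a lower end of 3.33. Spag17 had 20 UMIs in ependymal and 1 in choroid plexus nuclei (log2 ratio 6.49, 3.85 to 11.87), and Dnah10 had 10 and 1.

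Some other members fell short of the 4-fold measure between male ependymal and choroid plexus nuclei, yet their intervals excluded no difference. Among these were Dnah11 at a log2 ratio of 1.93 (1.04 to 2.81), Cfap69 at 1.94 (0.91 to 2.94) and Dnah9 at 1.73 (0.74 to 2.70). For further members a difference between these classes could not be resolved at this depth. Spag16 had 1242 CPM in male ependymal and 905 CPM in choroid plexus nuclei, a log2 ratio of 0.46 (-0.12 to 1.01) that includes no difference. For Dnah7b the log2 ratio was 0.85 (-0.37 to 1.96), for Spag6l 0.89 (-0.62 to 2.23) and for Cfap43 1.09 (-0.24 to 2.31), and these intervals include both no difference and a several-fold one. Of the ependymal markers Vwa3a and Pltp were present in these choroid plexus nuclei and the other 6 at 0 UMIs, as given above. The male ependymal nuclei held 53 UMIs of Ttr (1829 CPM), while male microglia or macrophages had 2536 CPM and the larger male clusters of oligodendrocytes and astrocytes 2368 and 1477 CPM. Of the other choroid plexus markers, Clic6, Kcnj13 and Prlr were at 0 UMIs in the male ependymal nuclei, Htr2c and Otx2 had 1 UMI each, Kl had 2 and Folr1 had 3. The part of choroid plexus RNA in the male ependymal values was not tested.

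Outside the ciliated classes single members were high in particular classes. The sums of astrocytes and neurons were close, and by the 4-fold measure 1 member was higher in female astrocytes (Dnah7b, with 3.37% over all genes) and 2 were lower (Dnah9 and Spag6l, with 2.9%). Against male neurons 1 member was higher in male astrocytes (Dnah7b, with 2.9% over all genes) and 1 lower (Dnah9, with 2.41%). A further measure, chosen after the values had been seen, set each of 9 large classes against the 8 others pooled. By it, 5 of 62 members were at least 3-fold higher in a class, at 20 CPM or more, in both libraries. Of all genes 12.5% were, so the members met the measure no more often. The 5 were Dnah7b, Cfap74, Dnah6, Cfap100 and Cfap20, and Dnah7b met it both in astrocytes and in oligodendrocyte precursors.

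Dnah9 gave the largest share of the member UMIs of neurons, 16.7% (male) and 20.4% (female). It stood at 193 CPM (187 to 200) in male and 201 CPM (194 to 208) in female CA1 neurons, and CA3 neurons held 126 and 128 CPM. A cluster that took no name, with Fn1 and Rxfp1 among its leading genes, lay above CA1 neurons in both libraries. Its 284 male and 272 female nuclei held 251 and 305 CPM of Dnah9. Male and female granule neurons held 93.8 and 128 CPM, and the subiculum or entorhinal class 82.4 and 92.2 CPM. GABAergic neurons had 42.3 and 79.7 CPM, and astrocytes 13.2 and 11.6 CPM. A Dnah9 UMI was found in 67.5% of male and 71.9% of female CA1 nuclei, against 4.09% and 3.72% of astrocytes, which were shallower. After thinning to 1000 UMIs the shares were 15.6% and 18.9% of CA1 nuclei, against 1.60% and 1.42% of astrocytes. Female ependymal nuclei held 377 UMIs of Dnah9 and 345 of Tmem212, against 7000 and 37 in female neurons.

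Dnah7b, one of the 3 paralogs shown above, was high in part of the glia. Male astrocytes had 67.6 CPM (59.0 to 77.0) and female astrocytes 90.6 CPM (82.6 to 99.1), and male and female oligodendrocyte precursors 75.7 and 82.6 CPM. GABAergic neurons had 25.9 and 20.9 CPM, and CA1 neurons 0.447 and 0.709 CPM. Dnah7c had 6.31 and 12.8 CPM in male and female astrocytes and Dnah7a 2.70 and 1.53 CPM, although all 3 genes had 207 to 345 CPM in male and 230 to 386 CPM in female ependymal nuclei. The 3 genes are near copies, and the sources used here do not say how reads that fit more than 1 of them were counted.

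**Figure D5:**
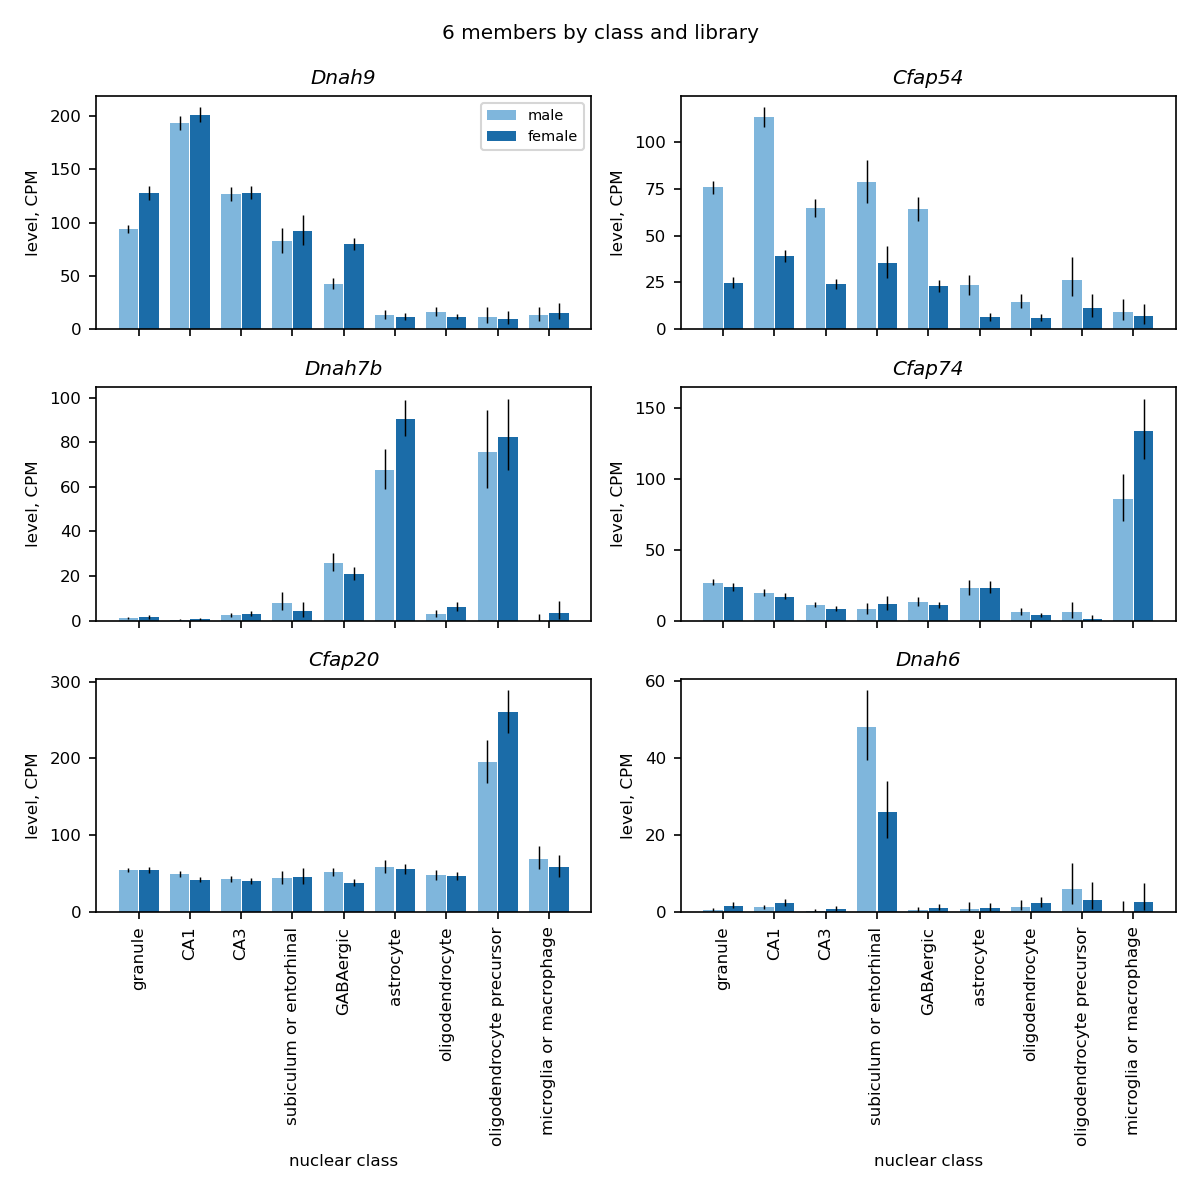
Level in CPM of 6 members in 9 nuclear classes that are neither ependymal nor choroid plexus, with the male library in light and the female in dark bars and exact 95% Poisson intervals as lines. Dnah9 is highest in CA1 neurons, Dnah7b in astrocytes and oligodendrocyte precursors, Cfap74 in microglia, Cfap20 in oligodendrocyte precursors and Dnah6 in the subiculum or entorhinal class, and for Cfap54 the light bar exceeds the dark one in each class.

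Cfap74, of the central apparatus, was highest in microglia or macrophages among these classes, at 85.8 CPM (70.5 to 103, male) and 134 CPM (114 to 157, female), against 19.7 and 16.7 CPM in neurons. Cfap20, an inner protein of doublets, stood at 195 and 260 CPM in male and female oligodendrocyte precursors, against 48.1 and 46.9 CPM in oligodendrocytes. Dnah6 was found in the subiculum or entorhinal class at 48.0 CPM (39.6 to 57.7, male) and 25.9 CPM (19.2 to 34.1, female), and at 1.21 and 2.38 CPM in CA1 neurons. Cfap100 was highest in CA1 neurons, at 30.4 and 32.5 CPM. Cfap36 was even across classes and ranged from 54.0 to 76.5 CPM over the 9 large classes of both libraries.

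Between the libraries the summed levels differed little in neurons and astrocytes. Neurons had 723 CPM (male) and 671 CPM (female) over all members (log2 male over female 0.11, 0.09 to 0.13), and astrocytes 562 and 550 CPM (log2 0.03, -0.06 to 0.11). In ependymal nuclei the log2 ratio of sums was -0.24 (-0.38 to -0.11), with 5 members at least 2-fold higher in the male library, against 14.9% of all genes, and 8 lower, against 29.7%. The log2 ratio of sums was as far from 0 in microglia or macrophages, at -0.24 (-0.40 to -0.07), and was 0.20 (0.10 to 0.31) in the subiculum or entorhinal class and -0.55 (-1.20 to 0.13) in the few Cajal-Retzius nuclei. By CPM plus 5, Cfap54 was the only one of 62 members at least 2-fold apart in neurons, with 0.152% of all genes at least 2-fold higher and 0.0827% lower in the male library. It was also the only one of 43 in astrocytes, with 0.619% of all genes higher and 0.415% lower. In neurons Cfap54 had 4873 UMIs and 82.5 CPM (80.2 to 84.9) in male and 1462 UMIs and 28.6 CPM (27.2 to 30.1) in female nuclei (log2 1.53, 1.44 to 1.61). Without Cfap54 the log2 ratio of the summed neuron levels was -0.0050, so the small excess of the male sum rested on this gene.

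The excess of Cfap54 in the male library ran through many classes. CA1 neurons had 113 CPM (male) and 39.2 CPM (female). Granule neurons had 75.9 and 24.7 CPM, GABAergic neurons 64.2 and 23.0 CPM and astrocytes 23.4 and 6.30 CPM. Of 20 clusters with at least 20 Cfap54 UMIs, 18 had the higher level in the male library. The other clusters were 1 of oligodendrocytes and the ependymal cluster, where Cfap54 had 656 CPM (395 to 1024, male) and 952 CPM (867 to 1043, female) (log2 -0.54, -1.28 to 0.12). Sex and library cannot be told apart here. Among the other members named for their ratios in neurons were Dnah5 at 10.5 and 6.57 CPM and Rsph9 at 11.2 and 6.89 CPM in male and female neurons, and Cfap47, an X-linked gene, at 13.0 and 20.1 CPM. Dnah8, at 1.22 and 3.27 CPM, had a log2 ratio of CPM of -1.42 (-1.84 to -1.02), and -0.41 once 5 CPM were added to these low levels. These pooled neuron levels also carry the different mix of neuron classes in each library.

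Genes of the same structures that the symbol pattern does not reach were described from lists of textbook roles. In the female library all 5 listed outer arm docking genes were at least 4-fold higher in ependymal nuclei than in neurons, as were 9 of 11 genes of the nexin-dynein regulatory complex, the brake between doublets. Over all genes the share was 5.36%, here and for the lists that follow. Armc4, a docking protein, had 207 and 401 CPM in male and female ependymal nuclei, against 1.47 and 2.21 CPM in neurons. Of the dynein assembly factors, which fold the motors in the cytoplasm, 6 of 12 were higher, Lrrc6 at 138 and 278 CPM in male and female ependymal nuclei, against 12.9 and 13.4 CPM in neurons. Of 5 further central apparatus genes 3 were higher, and Hydin had 414 and 614 CPM in ependymal nuclei, against 1.12 and 1.23 CPM in neurons.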

How the data were processed

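Nuclear RNA of 1 male and 1 female library was captured by droplets with 3' chemistry, per the labels. What was deposited is a matrix of unnormalized UMI counts for each library, written by Cell Ranger 7.0.1 per the file headers. The submitters' processing notes name bcl2fastq 2.20.0.422 and the build mm10. The sources used here do not give the annotation, the use of intronic reads, strand handling or cell calling. Members were matched by gene ID to GENCODE vM21 (mm10) for position and span.

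Kept for analysis were barcodes with 500 or more genes and a mitochondrial share of 5% or less (16034 male, 19251 female). Scrublet in scanpy 1.11.5 called 9.57% of male nuclei as doublets and 0% of female nuclei. Since a caller that marks so few has not worked, the female nuclei with the top 8% of scores were called instead (7.51%), so the libraries were treated by different thresholds. Called nuclei and 6 of 33 clusters with over 40% called nuclei were removed. Clusters came from 3000 variable genes, 40 components, 15 neighbours and Leiden resolution 1, without the members and the further genes named above as left out. They were named from 8 markers per class, and a name means that nuclei are like that type.

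UMIs were summed per class and library and expressed as CPM, a pseudocount of 5 CPM was added for the 4-fold and 2-fold measures, and genes under 10 UMIs in both classes together were not compared. The measure was tried on simulated counts for female ependymal nuclei over female neurons only. The genes changed there had higher neuron levels than most members have. The male classes, with fewer UMIs, were not simulated, nor was the spread between animals. RefSeq (GRCm38.p6) gave the promoter windows. Tools were Python 3.11.15, scipy 1.17.1, numpy 2.4.6, pandas 2.3.3, python-igraph 0.11.9 and matplotlib 3.10.9. Named members were the 20 with the most UMIs in female ependymal nuclei, the 5 highest in neurons, astrocytes and choroid plexus of the library with more such nuclei, and the 3 at each end of the male over female ratio in neurons among those with at least 50 UMIs there. Any other member named was chosen after its values were seen. The members, markers and lists were chosen with earlier results of these data known. Alternatives changed the filters, doublets, clustering, depth, pseudocount, fold, minimum and centring.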

Additional observations from a re-analysis of the deposited data

Results flagged for a closer look

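For 5 members the male over female ratio lay on opposite sides of 0 in 2 classes, with intervals of counting error that exclude 0. The share of all genes that meet this rule is not given here, so whether 5 members is unusual is not known. Whether the ratios differ between classes was not tested, and 1 library of each sex carries them. The pooled neurons differ in make-up between the libraries, so their ratios mix the level of a gene with the share of each neuron class. Log2 ratios of male over female CPM are given.

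Cfap74, of the central apparatus, was at 0.24 in neurons (0.12 to 0.37) and at -0.65 in microglia or macrophages (-1.01 to -0.29), the class in which it was highest outside the ciliated nuclei. Cfap20, an inner protein of doublets, was at 0.20 in neurons (0.12 to 0.28) and at -0.42 in oligodendrocyte precursors (-0.68 to -0.16). Dnah5, an outer arm heavy chain, was at 0.68 in neurons (0.48 to 0.87) and at -0.87 in oligodendrocyte precursors (-1.57 to -0.22), where it had 28 male and 66 female UMIs. Rsph10b was at 0.41 in neurons and at -1.29 in microglia or macrophages, from 9 male and 20 female UMIs, and shares a strand with Pms2. Rsph3a was at 2.24 in oligodendrocyte precursors, from 11 male and 3 female UMIs, and at -0.74 in astrocytes. Of these genes Cfap74 and Cfap20 rest on the most UMIs, 111 male and 158 female in microglia or macrophages and 198 male and 340 female in oligodendrocyte precursors.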

How the results depend on the processing

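No paired analysis was possible because each group holds 1 library. The counts of members higher in female ependymal nuclei ran from 38 to 55 over neurons and from 36 to 53 over astrocytes in the alternatives tried, all within 1.5 times the reported counts. For choroid plexus over neurons the count was 13 with a pseudocount of 20 CPM, 35 at 2-fold and 11 at 8-fold, and from 15 to 30 in the others. The shares over all genes under these alternatives are not given here. These counts therefore show only how the number of members moved with the settings. The log2 ratios of sums of ependymal and choroid plexus nuclei kept their direction, but several left their narrow counting intervals. With stricter filters on nuclei the ratio of ependymal nuclei was 4.93 over neurons and 5.39 over astrocytes, choroid plexus over neurons 2.39, and male over female astrocytes 0.38. With doublets kept these were 4.71, 4.86, 2.06 and 0.13. Without the 3 members with the most UMIs, ependymal nuclei were at 4.33 over neurons and 4.64 over astrocytes, choroid plexus over neurons at 2.13 and male over female neurons at 0.022. Thinned to 1000 UMIs, ependymal nuclei were at 4.71 over neurons and 4.98 over astrocytes and male over female astrocytes at 0.14. Centred on the median gene, ependymal over neurons was 4.69 and male over female neurons 0.081. Male over female neurons was 0.086 at Leiden resolution 0.5, and male over female astrocytes 0.11 at resolution 2. Without Cfap54, an alternative chosen after seeing the data, male over female neurons turned to -0.0050. Male over female astrocytes, whose interval includes 0, was at -0.015 without Cfap54 and at -0.010 when centred. Thinned to 2000 UMIs, the median number of members per female ependymal nucleus was 20, since deeper nuclei show more genes. The 5 male ependymal and 25 choroid plexus nuclei limit what can be seen of low members, as 3 UMIs equal 104 and 23.0 CPM there.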

Other observations

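Of 8 listed transcription factors of ciliogenesis that could be compared, 5 were at least 4-fold higher in female ependymal nuclei than in neurons, Rfx2, Rfx4, Myb, Trp73 and Gmnc. Over all genes the share at least 4-fold higher in this female comparison was 5.36%, here and for the lists below. In the male library 2 of 8 factors were higher over neurons, with 8.62% over all genes. Rfx2, which binds the X-box, had 242 and 98.1 CPM in male and female ependymal nuclei, 53.7 CPM in choroid plexus nuclei, and 4.30 and 2.54 CPM in neurons. Rfx3, of the same family and also a marker of granule neurons, was high in all of them, at 1104 and 1133 CPM in ependymal nuclei, 1380 CPM in choroid plexus nuclei and 793 and 672 CPM in neurons. Gmnc, which starts the programme of multiciliated cells, was highest in choroid plexus nuclei, with 53 UMIs and 406 CPM, and stood at 34.5 and 37.6 CPM in ependymal nuclei and 8.03 and 4.25 CPM in neurons. Its partner Mcidas had 0 UMIs in ependymal and choroid plexus nuclei.

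Motile and primary cilia also share genes. Of 17 genes of intraflagellar transport, which carries cargo along any cilium, 6 were at least 4-fold higher in female ependymal nuclei than in neurons, and their median log2 ratio was 1.48. Ift88 had 138 and 280 CPM in male and female ependymal nuclei, against 51.3 and 57.6 CPM in neurons. In the male library 3 of these 17 were higher and 2 lower, with 8.62% and 12.2% over all genes. None of the 14 genes of cytoplasmic dynein, the motor of the cell body and of retrograde transport, reached 4-fold over female neurons, with a median log2 ratio of 1.03. Over female astrocytes 2 of the 14 were higher, with 5.25% over all genes. Over male neurons 2 were higher and 2 lower, with 8.62% and 12.2% over all genes. Dync2h1, the heavy chain that works within cilia, had 449 and 395 CPM in male and female ependymal nuclei, against 133 and 137 CPM in neurons. Of 6 genes of basal body amplification, which is active while multiciliated cells form, 1 was higher.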
